A study of Mus musculus with 147 samples.

Results

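The 9 genes described here encode the core subunits of cohesin, and they were taken by name from a table of UMI counts (unique molecular identifiers, so that each captured mRNA molecule is counted once) with 31053 genes in all. Rec8, Rad21l, Smc1b and Stag3 are the forms known from meiosis, and Rad21, Smc1a, Stag1 and Stag2 the forms of dividing somatic cells. Smc3 is shared by both. The cells were wild-type male germ cells from embryonic day (E) 8.5 to the adult, from offspring of C57BL/6 females and males homozygous for 2 reporter transgenes, Blimp1-mVenus and Stella-ECFP (BVSC), so all groups carry these reporters. No group was treated. Embryonic cells were sorted by the fluorescence of both reporters and, from E14.5 on, by that of Stella-ECFP alone. Later cells were picked by morphology, and at postnatal day (PND) 30 cells were sorted by DNA content as 1N (haploid), 2N or 4N. The adult mice were 8 to 10 weeks old. Sexing by Sry was described for E10.5 and E11.5 and not for E8.5 and E9.5. Some E10.5 cells are named Male and others None, so pools up to E10.5 may hold female cells.

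Cohesin is a ring that holds sister chromatids together and extrudes chromatin loops. Its SMC arms, Smc3 with either Smc1a or Smc1b, are closed by a kleisin (Rad21, Rad21l or Rec8), to which a stromal antigen protein (Stag1, Stag2 or Stag3) is bound. In meiosis, Rec8 is cleaved on the arms at the first division and near the centromeres at the second, and complexes with Rec8, Rad21l, Smc1b and Stag3 form the axes on which homologous chromosomes pair. Male mice that lack one of these meiotic subunits are sterile.

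A pool, the unit of all tests, is the sum of the UMIs of the germ cells of a time-point and replicate, and at PND30 also of a DNA content. The 57 pools held 8250 germ cells, with 18 to 446 cells and 8364700 to 187711061 UMIs per pool (median 36105392). Levels are given as counts per 1000000 UMIs (CPM). Libraries were read at the 3′ end and each molecule was counted once, so CPM was not divided by gene length, and shares between genes are shares of counted molecules, which may be captured with different efficiency. At least 2 biological replicates per time-point were described. By the study's methods, a replicate up to E18.5 used more than 1 embryo or gonad and a replicate from PND0 on a single gonad or animal, so the sorted PND30 classes of a replicate share their source. Of the E8.5 replicates only replicate 2 was used, as replicate 1 held 0 and replicate 3 held 2 germ cells of 48 each.

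For tests, pools were grouped into stages, named here from the time-points. These are migrating (E8.5 to E10.5), gonadal (E11.5 and E12.5), arresting (E15.5 and E16.5), quiescent (E17.5 to PND0), neonatal (PND4 to PND6), juvenile (PND7 and PND10) and early meiotic germ cells (PND12 and PND14), and the 3 sorted classes of PND30. Levels of genes with known patterns are given beside the names. These genes were chosen after their values were seen, and Ddx4 and Prm1 are also in the rule that defines a germ cell, so they do not test the names. Ddx4, a germ cell helicase, was at 35.6 ± 25.1 CPM (SD, n = 6) in migrating pools and at 260.5 ± 83.6 CPM (SD, n = 4) in gonadal ones. Mki67, which marks cycling cells, averaged 231 CPM in gonadal, 20.8 CPM in arresting, 18.8 CPM in quiescent and 169 CPM in neonatal pools, and Sycp3, of the synaptonemal complex, was at 42.97 CPM in juvenile and 135.85 CPM in early meiotic pools. Prm1, a protamine of spermatids, was at 1560 CPM in 1N, 715 CPM in 2N and 233 CPM in 4N pools of PND30, so the 2N and 4N classes also held RNA of spermatid genes. Of 35 markers of Sertoli, interstitial, Leydig, blood, endothelial and endodermal cells, 34 or 35 had a UMI at every stage, and their summed level ran from 31.3 to 109.4 CPM in sorted PND30 pools, from 93.03 to 589 CPM up to E14.5 and from 358 to 1941 CPM between E15.5 and PND14.

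**Figure D1:**
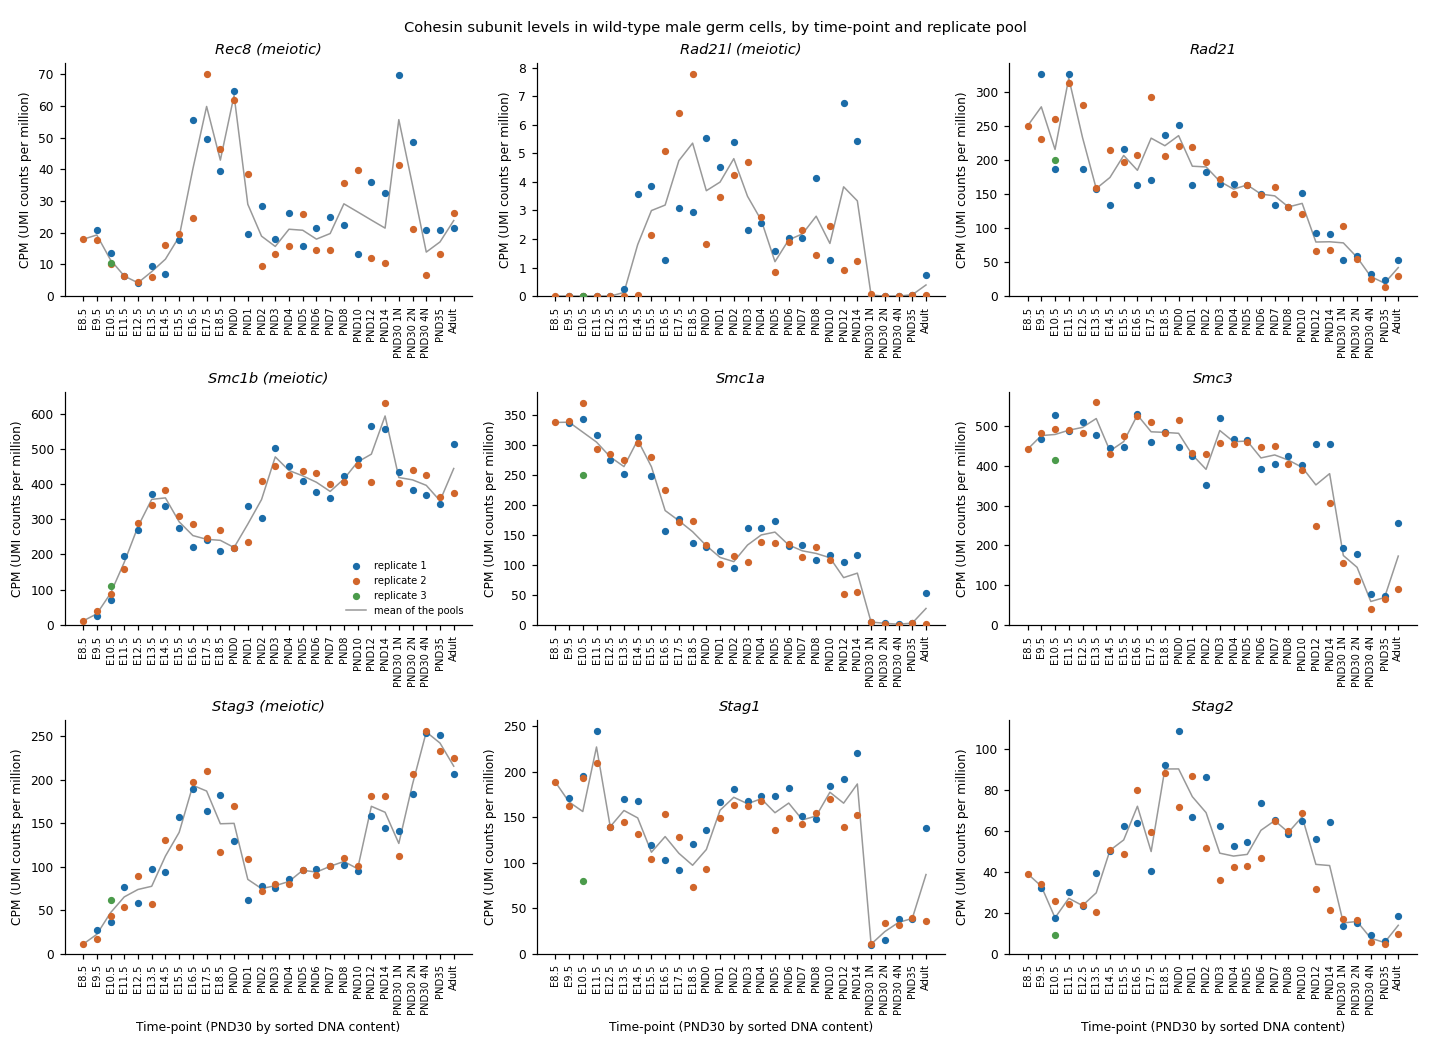
CPM of each of the 9 subunits (vertical axes, each from 0) by time-point (horizontal axes), with PND30 split by sorted DNA content; points are replicate pools and the grey line joins their means. Smc1b rose from 10.99 CPM at E8.5 to 290 CPM at E12.5, Smc1a fell from 337 CPM at E8.5 to 1.602 CPM or less in 4N cells, and Rad21l stayed at 7.77 CPM or less in every pool.

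Each subunit had its own order of levels over the time-points. The highest mean of the 2 pools of a time-point was 63.3 ± 2.11 CPM at PND0 for Rec8, 5.36 ± 3.41 CPM at E18.5 for Rad21l, 320.4 ± 9.29 CPM at E11.5 for Rad21, 593 ± 53.4 CPM at PND14 for Smc1b and 255 ± 1.46 CPM in 4N cells of PND30 for Stag3 (SD, n = 2 each). Most neighbours in these orders were not separated. With PND30 cells of no stated DNA content as a further class, the pools of neighbours in rank did not overlap in 2 of 28 cases for Rec8, 4 for Rad21l, 5 each for Smc1b, Smc1a, Stag3, Stag1 and Stag2, and 6 each for Rad21 and Smc3. The low end of Smc1b was the clearest order, with E8.5, E9.5, E10.5 and E11.5 each below the next without overlap.

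The first comparison asked what differed once germ cells had colonized the gonad. Smc1b, the meiotic partner of Smc3, and Stag3, the meiotic stromal antigen, were higher in gonadal than in migrating cells, and Rec8, the meiotic kleisin, was lower. In the 6 migrating pools Smc1b ran from 10.99 to 111.6 CPM with a median of 53.7 CPM, and it was at 195 and 160 CPM in the E11.5 pools and 268 and 290 CPM in the E12.5 pools. All gonadal pools lay above all migrating ones, and the log2 fold change was 1.89 ± 0.31 (SE, adjusted p = 9.03e-05). Stag3 ran from 10.7 to 61.3 CPM with a median of 31.9 CPM before, and stood at 76.7 and 53.7 CPM at E11.5 and 58.7 and 88.8 CPM at E12.5. The E10.5 replicate 3 pool, at 61.3 CPM, lay above a pool of each gonadal time-point, so the groups overlapped, and the log2 fold change was 0.99 ± 0.26 (adjusted p = 0.0124). Rec8 ran the other way, from 10.1 to 20.9 CPM (median 15.7 CPM) in migrating pools to 6.32 and 6.38 CPM at E11.5 and 4.01 and 4.42 CPM at E12.5, with no overlap and a log2 fold change of -1.59 ± 0.38 (adjusted p = 0.00671).

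These were 3 of 9 subunits, where 3.19% of the 26674 genes tested were called higher and 2.52% lower at a false discovery rate of 0.05. Smc3, Smc1a, Rad21, Stag1 and Stag2 lay between -0.25 and 0.12 on the log2 scale and did not pass the test, and Rad21l had no UMI in either group. None of the 16 regulators of cohesin passed the test in edgeR or in DESeq2, with 2 at an unadjusted p under 0.05. A pool sums over cells, so a change in the mix of cells and a change in RNA per cell cannot be told apart, here or below. The somatic markers summed to 93.03 to 330.5 CPM in migrating and 94.9 to 566 CPM in gonadal pools, and their part was not tested. Somatic cells of prenatal samples had 30.6 CPM of Smc1b, 15.2 CPM of Stag3 and 32.1 CPM of Ddx4, each below its gonadal level. Rec8 went the other way, at 8.62 CPM in these somatic cells, above all gonadal pools. With the pools of replicate 1 or of replicate 2 left out, 0 of the 9 subunits were called. In these fits the log2 fold changes were 1.80 and 1.67 for Smc1b, 1.05 and 0.62 for Stag3 and -1.40 and -1.60 for Rec8. Without replicate 2 only 0.543% of all genes tested were called. Stag3 was not called without the E12.5 replicate 2 pool (0.87, adjusted p = 0.0698).

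The promoters of Smc1b and Stag3, the subunits that rose together here, are shown because both hold the letters TTCCCGC, an E2F-type element, close to the start site. RefSeq promoters (250 bases before to 50 after the start, GRCm38.p6) matched 7 of the 9 subunits, all but Rad21 and Stag2. Capitals mark TTCCCGC and, in Stag3, the E-box CACGTG, each searched on both strands, and the motifs do not overlap. Smc1b lies at chr15:85131908-85132207 on the minus strand and Stag3 at chr5:138280259-138280558 on the plus strand.
Smc1b: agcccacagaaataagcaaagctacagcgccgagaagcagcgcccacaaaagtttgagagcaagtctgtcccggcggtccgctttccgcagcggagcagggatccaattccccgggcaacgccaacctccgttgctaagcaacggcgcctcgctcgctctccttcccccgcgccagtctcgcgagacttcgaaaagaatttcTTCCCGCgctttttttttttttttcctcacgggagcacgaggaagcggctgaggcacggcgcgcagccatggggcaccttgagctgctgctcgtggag
Stag3: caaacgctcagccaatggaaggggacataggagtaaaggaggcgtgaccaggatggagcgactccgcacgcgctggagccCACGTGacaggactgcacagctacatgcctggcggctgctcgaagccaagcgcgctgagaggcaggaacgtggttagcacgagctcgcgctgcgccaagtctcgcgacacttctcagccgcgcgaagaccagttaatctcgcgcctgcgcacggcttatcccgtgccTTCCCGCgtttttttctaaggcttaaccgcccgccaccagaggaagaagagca

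TTCCCGC starts 48 bases before the RefSeq start site in Smc1b and 3 bases before it in Stag3. It is also in the promoters of Smc1a and Stag1, which did not pass the test in this comparison, and not in those of Rec8, Rad21l and Smc3, while 4.60% of 32851 mouse promoters hold it. CACGTG was found in Stag3 among the 7 promoters and in 7.15% of all promoters. The window of Rad21l holds fewer G and C bases than the other 6, which have 58.3 to 73.7% GC. The windows of Stag3 and Stag1 lie inside the genes as annotated by GENCODE M21, which start at chr5:138280240 and chr9:100597798. A match describes letters in the RefSeq window and says nothing about whether a factor is bound.

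The second comparison set arresting cells, in which the cell cycle stops, against gonadal ones. Rec8, Rad21l, Stag3 and Stag2 were higher in arresting cells, and Rad21 and Stag1 lower. Rec8 went from 4.01 to 6.38 CPM in the gonadal pools to 17.8 and 19.7 CPM at E15.5 and 55.6 and 24.7 CPM at E16.5, with all arresting pools above all gonadal ones and a log2 fold change of 2.23 ± 0.41 (adjusted p = 2.15e-05). Rad21l, the other meiotic kleisin, had 0 UMIs among 107303813 in the gonadal pools, where 3 UMIs over the group correspond to 0.028 CPM. In the arresting pools it had 326 UMIs, at 3.87, 2.12, 1.28 and 5.10 CPM, which is at least 110.59-fold higher and passed the test (adjusted p = 5.21e-06). Its level was still far below that of the other kleisins at every time-point.

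Stag3 was at 157 and 122.1 CPM at E15.5 and 189.9 and 197 CPM at E16.5, above all gonadal pools, with a log2 fold change of 1.03 ± 0.29 (adjusted p = 0.00299). Stag2, an X-linked gene, was at 62.7, 48.7, 64.002 and 80.4 CPM against 30.01, 24.1, 23.3 and 23.7 CPM, also without overlap (1.11 ± 0.31, adjusted p = 0.0032). Rad21, the mitotic kleisin, was at 217, 197, 163 and 207 CPM against 327, 314, 186 and 280.2 CPM. These pools overlapped, and its log2 fold change was -0.71 ± 0.21 (adjusted p = 0.00482). Stag1 was at 119.3, 103.7, 103.3 and 154 CPM against 245, 209.9, 139.6 and 139.6 CPM, also with overlap, and passed the test as lower (-0.84 ± 0.27, adjusted p = 0.0089). Smc1b was at 273 ± 37.7 against 228 ± 61.04 CPM, Smc1a at 227 ± 52.3 against 292 ± 17.53 CPM and Smc3 at 495 ± 40.3 against 494 ± 12.7 CPM (SD, n = 4 each), and none of the SMC subunits passed the test.

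So 4 subunits rose and 2 fell, where 34.9% of all genes were called higher and 14.4% lower and the median log2 fold change was 0.89 over all genes and 0.06 over the subunits. Against that median, Stag3 and Stag2 moved little more than a typical gene. Of the regulators, 3 were higher and 9 lower. Meikin, a protector of centromeric cohesion in meiosis, was at 6.76 against 0.068 CPM, and Ctcfl, the germline paralogue of Ctcf, at 13.4 against 0.22 CPM. Sgo2a, a shugoshin, fell by 3.26 on the log2 scale, and Cdca5, the sororin that stabilizes cohesin in replicating cells, by 2.57. The third regulator that rose was the deacetylase Hdac8 (1.63). Somatic markers summed to 358 to 1348 CPM in arresting pools, with Afp alone at 276 CPM, and their part was not tested. Arresting cells were sorted by Stella-ECFP alone and gonadal ones by both reporters, and the part of the gate was not tested. Stag1 was not called without the E11.5 replicate 1 pool (-0.66, adjusted p = 0.0539), and 3 subunits were called with all pools of replicate 1 left out.

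Between quiescent and arresting cells no subunit passed the test. The edgeR test gave 1 subunit at an unadjusted p under 0.05 and DESeq2 called 0, where 2.94% of all genes were called higher and 5.55% lower. Of those calls 34.6% were higher, and 49.1% with RLE factors and 58.2% with library size. In the 6 quiescent pools Rec8 ran from 39.5 to 70.2 CPM with a median of 55.7 CPM, overlapping the 55.6 CPM of the E16.5 replicate 1 pool, at a log2 fold change of 0.73 ± 0.36 (adjusted p = 0.197). Without that pool it was called (1.19, adjusted p = 0.0447). Smc1a was at 153 ± 21.9 CPM (SD, n = 6) against 227 ± 52.3 CPM, at -0.80 ± 0.34 (adjusted p = 0.123). Of the regulators 4 were lower, namely Cdca5 (-1.63), the separase Espl1 (-1.59), the loader Mau2 (-0.79) and the securin Pttg1 (-0.78). Somatic markers were highest here, at 1253 to 1941 CPM. The quiescent stage joins sorted E17.5 and E18.5 cells with PND0 cells picked by morphology. The part of this, here and in the next comparison, was not tested.

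The fourth comparison set neonatal cells, which had resumed cycling, against quiescent ones. Smc1b and Stag1 were higher in neonatal cells and Rec8 lower, each without overlap of the pools. Smc1b went from 211 to 269 CPM in the 6 quiescent pools (median 230.0 CPM) to 379 to 450.2 CPM in the 6 neonatal ones (median 429 CPM), a log2 fold change of 1.28 ± 0.29 (adjusted p = 0.000294). Stag1 went from 73.3 to 135.4 CPM (median 107.3 CPM) to 136.2 to 182 CPM (median 170.3 CPM), at 1.02 ± 0.22 (adjusted p = 0.000165). Rec8 went from 39.5 to 70.2 CPM (median 55.7 CPM) to 14.49 to 26.3 CPM (median 18.7 CPM), at -1.06 ± 0.32 (adjusted p = 0.00542). At PND0 the Rec8 pools were still at 64.8 and 61.8 CPM, and at PND1 they were at 19.5 and 38.5 CPM.

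For 2 further subunits the call depended on the setting. Rad21 was at 157 ± 7.51 CPM in neonatal and 230 ± 41.6 CPM in quiescent pools and Stag3 at 90.9 ± 6.88 and 162 ± 34.4 CPM (SD, n = 6 each), and neither gene's pools overlapped. With TMM scaling their log2 fold changes were -0.13 and -0.42 and neither passed the test, while with RLE factors they were -0.49 (adjusted p = 0.0052) and -0.79 (adjusted p = 0.00287) and both were called lower. Stag3 was also called with only the pools of both stages (-0.39, adjusted p = 0.0214). The median log2 fold change of all genes moved likewise, from -0.66 with TMM to -1.02 with RLE and -1.08 with library size. Smc3 (0.31, adjusted p = 0.114) was called without any 1 of E17.5 replicate 1 or 2, E18.5 replicate 1 or 2 and PND0 replicate 2 (0.40 to 0.42). Under TMM 2 subunits rose and 1 fell, where 20.3% of all genes were called higher and 35.6% lower (36.3% of calls higher, 24.98% with RLE and 23.1% with library size). Of the regulators 10 were higher and 1 lower, with Cdca5 (3.81), Sgo2a (3.03) and Espl1 (2.18) rising and Meikin falling by 3.60 on the log2 scale. Somatic markers summed to 575 to 1030 CPM in neonatal pools, lower than in quiescent ones, and their part was not tested. Without the pools of replicate 1, only Stag1 was called.

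Juvenile cells (PND7 and PND10) did not differ detectably from neonatal ones in any subunit. No subunit passed the test in edgeR or DESeq2 or had an unadjusted p under 0.05, where 0.581% of all genes were called higher and 0.412% lower (58.5% of calls higher, 32.5% with RLE factors and 47.2% with library size). The largest log2 difference was that of Stag2, at 0.41 ± 0.28 (adjusted p = 0.52). Of the regulators 0 were called in edgeR and 1 in DESeq2, with 1 at an unadjusted p under 0.05.

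The sixth comparison asked which subunits differed in pools of the first meiotic wave. Stag3 was higher in early meiotic than in juvenile cells, and Rad21 was lower. Stag3 was at 100.5 and 100.4 CPM at PND7 and 94.5 and 100.7 CPM at PND10, and at 158 and 181 CPM at PND12 and 144.4 and 181 CPM at PND14. The groups did not overlap, and the log2 fold change was 0.90 ± 0.29 (adjusted p = 0.0352). Rad21 went from 134.3, 160.4, 152 and 120.9 CPM to 92.6, 66.5, 91.4 and 68.5 CPM, also apart, at -0.74 ± 0.21 (adjusted p = 0.0163). Smc1b was at 421 ± 51.3 CPM in juvenile and 539 ± 95.8 CPM in early meiotic pools (SD, n = 4 each) and was not called, and Rec8, at 23.2 ± 12.3 and 22.7 ± 13.4 CPM, overlapped widely.

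That was 1 subunit higher and 1 lower, where 9.24% of all genes were called higher and 0.622% lower. Nipbl, the cohesin loader, rose by 1.43 and Meikin by 4.46 among the regulators on the log2 scale. Both calls depended on the setting. Stag3 was not called with RLE factors, library size or DESeq2 (adjusted p = 0.0704, 0.0777 and 0.054), nor in 6 of the 8 fits that left out a single pool (PND7 replicates 1 and 2, PND10 replicates 1 and 2, PND12 replicate 2 and PND14 replicate 2, adjusted p up to 0.206). Rad21 was not called without PND7 replicate 2 (adjusted p = 0.0659) or PND10 replicate 1 (adjusted p = 0.0537).

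The early meiotic replicate pools differed from each other. At PND12 and at PND14 the replicate 1 pool had more Smc1a, Smc3, Rec8, Rad21l, Rad21, Stag1 and Stag2 than the replicate 2 pool, and less Stag3. Smc1a was at 105.3 against 51.9 CPM at PND12 and 116.8 against 55.3 CPM at PND14, and Rec8 at 36.02 against 11.98 CPM and 32.5 against 10.4 CPM. Beside this, the Sertoli, interstitial, peritubular and Leydig markers summed to 1177 against 252 CPM at PND12 and 544 against 153 CPM at PND14, and Sycp3 was at 89.1 against 128.8 CPM and 145.7 against 179.8 CPM. The part of these differences in the levels of the subunits was not tested. The libraries of PND12 replicate 2 were not alike. A library of 48 cells had 121.02 CPM of Smc1a, 113.4 CPM of Rad21, 209.9 CPM of Stag1 and 84.97 CPM of Stag3, beside 167 CPM of Zbtb16, a marker of spermatogonia looked at after values were seen, while the other 2 had 37.3 and 32.3 CPM of Smc1a and 193 and 219.6 CPM of Stag3. So this library resembled replicate 1 in Smc1a, and its Stag3 lay below all juvenile pools although the pool of that replicate lay above them.

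The PND14 replicate 1 cells carry a DNA content in their names, so the subunits can be set side by side within a replicate. The 186 cells named 4N had more Stag3 than the 160 named 2N (184 against 90.3 CPM), more Smc1b (636 against 445 CPM), more Rad21l (7.496 against 2.63 CPM) and more Stag1 (249 against 183 CPM). They had less Rad21 (68.7 against 122.4 CPM) and Stag2 (53.6 against 79.9 CPM), while Smc1a (122.7 against 108.6 CPM) and Rec8 (31.1 against 34.4 CPM) were close. Sycp3 was at 213 CPM in the 4N and 53.7 CPM in the 2N cells. The 95% Poisson intervals, 180.5 to 187 CPM and 87.5 to 93.2 CPM for Stag3, cover counting error only, and with 1 replicate this has no test. A library of PND14 replicate 2 also named 2N, with 93 cells, was nearer to the 4N cells in Stag3 (162.5 CPM), Smc1b (609 CPM), Rad21 (69.7 CPM) and Sycp3 (237 CPM), so the name did not go with the same levels in both replicates.

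**Figure D2:**
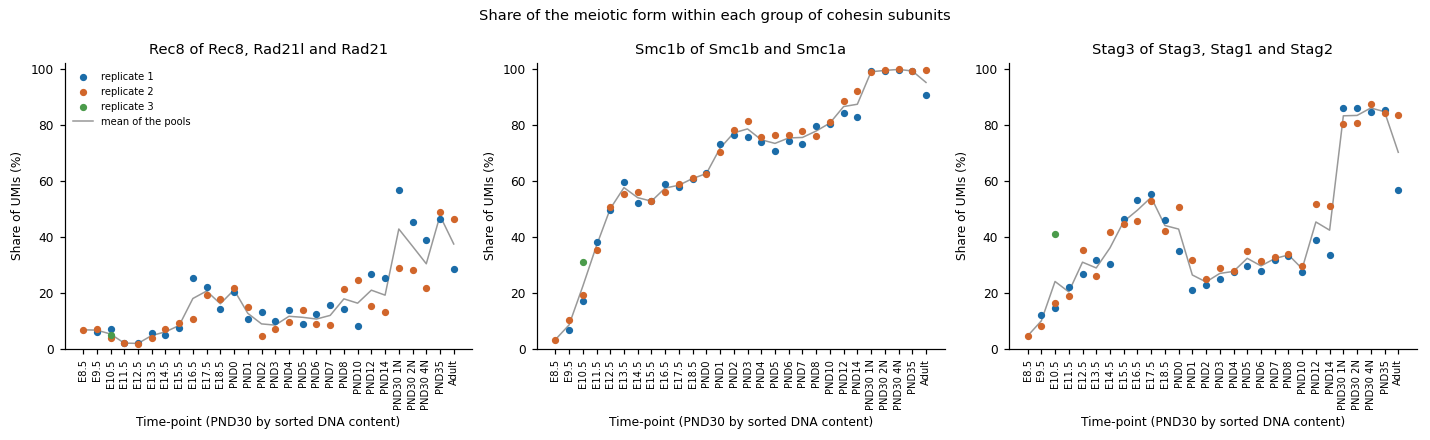
Share of UMIs (vertical axes, percent) held by Rec8 among the kleisins, by Smc1b among Smc1a and Smc1b, and by Stag3 among the Stag genes, by time-point (horizontal axes); points are replicate pools and lines their means. Smc1b held 3.16% at E8.5 and 98.7% or more in every sorted PND30 pool, while Stag3 rose to 55.2% before birth, fell again, and reached 80.3% or more at PND30.

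The share of the meiotic form changed at different times in the SMC1 genes, the Stag genes and the kleisins. Smc1b held 14.45 ± 10.02% (SD, n = 6) of the Smc1a and Smc1b UMIs in migrating, 43.3 ± 7.72% (n = 4) in gonadal, 60.5 ± 1.91% (n = 6) in quiescent and 74.4 ± 2.21% (n = 6) in neonatal pools, and 86.9 ± 4.21% (n = 4) in early meiotic ones. It held the larger share in every pool from E13.5 on, before birth and long before meiosis. Stag3 held 16.02 ± 12.9% of the Stag UMIs in migrating, 47.4 ± 3.91% in arresting and 46.9 ± 7.65% in quiescent pools, only 29.8 ± 2.94% in neonatal ones and 43.8 ± 8.95% in early meiotic ones. Rec8 held 1.89 ± 0.24% of the kleisin UMIs in gonadal and 19.2 ± 2.95% in quiescent pools, and never the larger part of a stage's mean, with 19.96 ± 6.89% in early meiotic pools. Later its mean came nearer to that of Rad21, at 55.7 against 78.3 CPM in 1N cells and 17.1 against 19.1 CPM at PND35. In the 1N replicate 1 pool Rec8 was above Rad21. In early meiotic pools the summed kleisin level was 106.05 ± 30.4 CPM against 621 ± 110 CPM for the SMC1 genes.

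The seventh comparison set PND30 cells sorted with a 4N DNA content against early meiotic cells. The shared Smc3 and all subunits of the mitotic set were lower in 4N cells, Rad21l was not detected, and Stag3 was higher. Smc1a showed the largest difference with counts on both sides, from 105.3, 51.9, 116.8 and 55.3 CPM to 1.602 and 0.483 CPM, a log2 fold change of -5.83 ± 0.64 (adjusted p = 7.3e-10). Smc3, which has no meiotic counterpart, went from 455, 249.9, 455 and 307 CPM to 78.7 and 38.9 CPM, at -2.25 ± 0.28 (adjusted p = 1.54e-08). In both genes the 4N pools lay far below every early meiotic pool.

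Stag1 went from 192, 138.8, 221 and 152 CPM to 37.6 and 30.9 CPM (-1.98 ± 0.36, adjusted p = 1.52e-05). Stag2 went from 55.9, 31.4, 64.7 and 21.5 CPM to 9.19 and 5.80 CPM (-2.10 ± 0.42, adjusted p = 6.28e-05). Rad21 went from 92.6, 66.5, 91.4 and 68.5 CPM to 33.05 and 24.5 CPM (-1.09 ± 0.27, adjusted p = 0.000906). None of these genes' pools overlapped. Rad21l had 828 UMIs in early meiotic pools, at 6.75, 0.910, 5.44 and 1.23 CPM, and 0 among 106970014 UMIs in 4N pools, at least 127.69-fold lower (adjusted p = 0.000185). Stag3 stood at 254 and 256 CPM in the 4N pools, above the 144.4 to 181 CPM of all early meiotic pools, at 0.95 ± 0.34 (adjusted p = 0.0168). Smc1b, at 367 and 425 CPM against 404 to 631 CPM, and Rec8, at 20.999 and 6.80 CPM against 10.4 to 36.02 CPM, overlapped with early meiotic pools and were not called (-0.09 and -0.24).

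Thus 1 subunit rose and 6 fell, where 25.4% of all genes were called higher and 26.1% lower (49.2% of calls higher, 60.01% with RLE factors), and the median log2 fold change was -1.98 over the subunits and 0.0 over all genes. Smc1a and Stag2 lie on the X chromosome, which is silenced in spermatocytes from pachytene on. Of 967 X-linked genes tested 508 (52.5%) were lower and 181 higher, with a median of -3.20, and 271 of them fell more than Smc1a and 545 more than Stag2. Smc3, Rad21 and Stag1 are autosomal. The part of X silencing in the levels of the subunits was not tested. Of the regulators 8 were lower, with Sgo1 (-5.49), the X-linked deacetylase Hdac8 (-4.97) the acetyltransferase Esco2 (-4.69) and Ctcfl (-2.59) the furthest. The 2 that were higher, named after their values were seen, were Nipbl (1.99) and Pttg1 (0.87). Somatic markers summed to 31.3 and 54.8 CPM in 4N pools and 362 to 1571 CPM in early meiotic ones, and their part was not tested. Stag3 was not called with library size (adjusted p = 0.101) or without PND14 replicate 1, 4N replicate 1 or 4N replicate 2 (adjusted p = 0.0781, 0.0699 and 0.134), and Rad21 was not called under a stricter rule for germ cells (-0.36, adjusted p = 0.354).

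**Figure D3:**
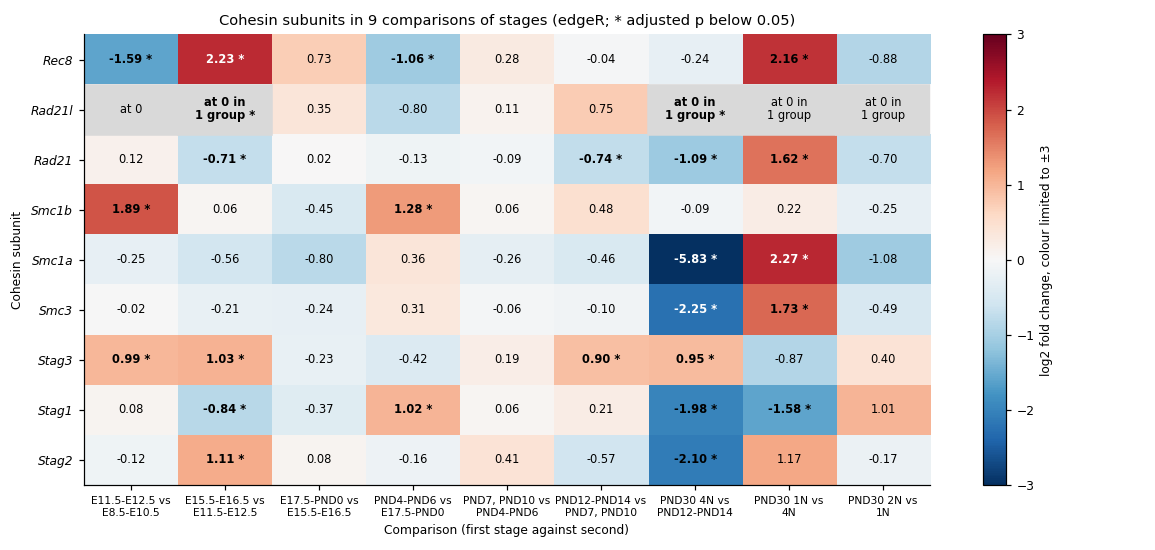
Log2 fold change of each subunit (rows) in the 9 comparisons of stages (columns), first stage against second, by edgeR; red is higher and blue lower in the first stage, asterisks mark an adjusted p below 0.05, and grey cells mark Rad21l where a stage had no UMI. The column of 4N against early meiotic cells is at -1.09 or below for Smc3 and the mitotic subunits, and that of juvenile against neonatal cells holds no asterisk.

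The last comparisons were within PND30, with 2 pools per class and a spread estimated over all stages. Rec8, Rad21, Smc1a and Smc3 were higher in 1N than in 4N cells, and Stag1 was lower. Rec8 was at 69.9 and 41.5 CPM in 1N pools and 20.999 and 6.80 CPM in 4N pools (2.16 ± 0.58, adjusted p = 0.00615). Rad21 was at 53.2 and 103.3 CPM against 33.05 and 24.5 CPM (1.62 ± 0.30, adjusted p = 0.000124). Smc3 was at 194 and 155 CPM against 78.7 and 38.9 CPM (1.73 ± 0.30, adjusted p = 4.43e-05). In each of these genes both 1N pools were above both 4N pools. Smc1a was at 3.998 and 5.29 CPM against 1.602 and 0.483 CPM (2.27 ± 0.58, adjusted p = 0.00393), still far below its level at PND14. Stag1 was at 9.67 and 10.8 CPM against 37.6 and 30.9 CPM (-1.58 ± 0.39, adjusted p = 0.0028). Stag3, at 141.02 and 112.5 against 254 and 256 CPM (-0.87, adjusted p = 0.162), and Stag2, at 13.3 and 16.8 against 9.19 and 5.80 CPM (1.17, adjusted p = 0.0675), did not overlap but did not pass the test. With a replicate block over the PND30 pools, whose classes share their source, both were called (Stag3 at -0.83, adjusted p = 0.0128, and Stag2 at 1.19, adjusted p = 0.0425), with 41.1% of 20047 genes called.

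Here 4 subunits rose and 1 fell, where 4.88% of all genes were called higher and 9.75% lower (33.4% of calls higher, 57.8% with RLE factors). X-linked genes had a median log2 fold change of 1.77, with 192 higher and 3 lower of 967. The part of X linkage in the levels of Smc1a and Stag2 was not tested. Of the regulators 0 were higher and 5 lower, with Sgo2a (-2.03), Pds5b (-1.62), Esco1 (-1.30) and Ctcf (-1.14) the furthest. Single pools decided several calls, and without the pools of replicate 2 no subunit was called. Smc1a was not called without 1N replicate 2 or 4N replicate 2 (2.02 and 1.76), Rec8 not without 1N replicate 1 or 4N replicate 2 (1.82 and 1.62), Rad21 not without 1N replicate 2 (1.01) and Stag1 not without 1N replicate 1 (-1.44), while Smc3 passed in each of these fits. Stag2 was called with RLE factors (1.64, adjusted p = 0.0059), under which the median of all genes was 0.33 and not 0.0.

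No subunit differed between 2N and 1N cells in the edgeR test. There were 2 at an unadjusted p under 0.05 and 1 called by DESeq2, where 1.06% of all genes were called higher and 0.146% lower (87.9% of calls higher, 56.9% with RLE factors). With the replicate block 2.97% of genes and 0 subunits were called. Stag1 was at 14.95 and 33.3 CPM in 2N cells against 9.67 and 10.8 CPM (1.01 ± 0.38, adjusted p = 0.229), and was called with library size (1.23, adjusted p = 0.036) and without the 2N replicate 1 pool (1.48, adjusted p = 0.0404). Rad21 was at 59.3 and 54.8 CPM against 53.2 and 103.3 CPM (-0.70 ± 0.30, adjusted p = 0.323), and was called with RLE factors (-0.97, adjusted p = 0.0407) and by DESeq2 (adjusted p = 0.0111). Across the classes, the mean of Stag1 ran from 34.2 CPM in 4N over 24.1 CPM in 2N to 10.3 CPM in 1N cells, and that of Stag3 from 255 over 195 to 126.8 CPM, while Rec8 ran the other way, from 13.9 over 34.99 to 55.7 CPM. The Stag1 pools of 4N and 2N cells overlapped. So did the Rec8 pools of 2N and 1N cells, with SDs of 19.4 and 20.03 CPM (n = 2 each). None of the 16 regulators was called in edgeR or DESeq2, with 3 at an unadjusted p under 0.05.

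**Figure D4:**
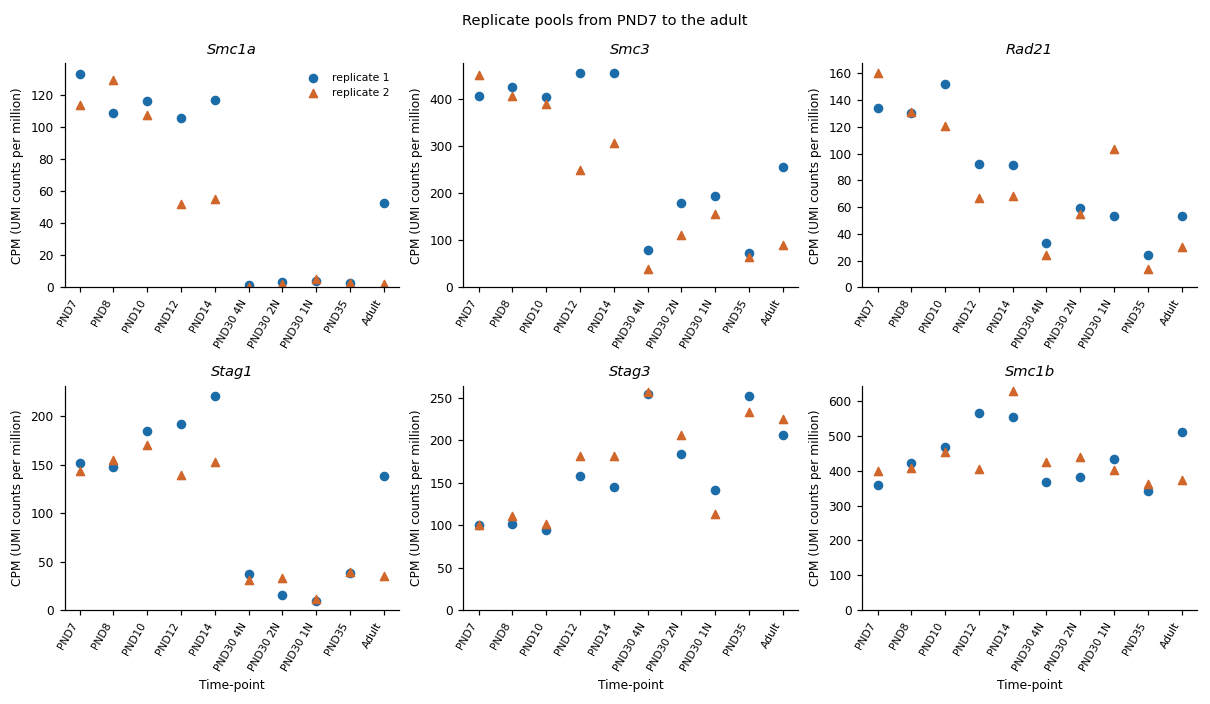
CPM (vertical axes, from 0) of selected subunits in each replicate pool from PND7 to the adult (horizontal axes). In the adult, replicate 1 had 52.3 CPM of Smc1a and replicate 2 had 2.21 CPM, and at PND12 and PND14 replicate 1 lay above replicate 2 in Smc1a, Smc3, Rad21 and Stag1 and below it in Stag3.

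PND35 and adult cells entered no comparison, and neither did those of E13.5, E14.5, PND1 to PND3 and PND8. At PND35 the replicate pools had Stag3 at 252 and 233 CPM, Smc1b at 343 and 362 CPM, Smc1a at 2.76 and 3.06 CPM, Smc3 at 73.4 and 64.2 CPM, Stag1 at 38.1 and 39.2 CPM and Rad21 at 24.1 and 14.1 CPM. In the adult, replicate 1 had 52.3 CPM of Smc1a, 138.6 CPM of Stag1 and 256 CPM of Smc3, against 2.21, 35.3 and 90.3 CPM in replicate 2. The difference held in each library, with Smc1a at 43.5 to 67.98 CPM in the 4 libraries of replicate 1 and 0.918 to 3.76 CPM in the 5 of replicate 2. Somatic markers summed to 1194 and 76.4 CPM in these pools, with Defb19, Cyp11a1 and Cyp17a1 the highest of them by their mean, and Zbtb16 was at 13.9 to 32.9 CPM and at 0.248 to 1.29 CPM in their libraries, and the part of either was not tested. Rec8 (21.6 and 26.1 CPM) and Stag3 (206 and 225 CPM) were close in the adult pools.

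Shares of cells with a UMI were compared after each cell was thinned to 50000 UMIs, since germ cells (median 234934 to 410781 UMIs by stage) were often deeper than somatic cells (92794 to 388353 UMIs). Smc1b was found in 55.2% of 527 migrating and 94.97% of 298 gonadal germ cells (71.6% and 98.7% before thinning), against 13.6% and 38.1% of somatic cells of those time-points. From E13.5 on at least 98.6% of germ cells had it, but so had up to 88.9% of somatic cells, so that its presence in a single cell does not separate the types. Somatic cells of PND0 to PND14 had 178 CPM of Smc1b beside 152 CPM of Ddx4. The part of germ cell RNA in them was not tested. Rec8 was found in 13.1% of gonadal germ cells (27.6% before thinning) and 11.4% of somatic cells, and in 77.4% of quiescent germ cells (91.3% before thinning) against 27.2% of somatic cells. In early meiotic cells it was found in 32.5%, against 27.1% of somatic cells.

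Smc1a was found in 64.95% of 893 early meiotic cells, below the 85.5% of somatic cells and the 92.1% of juvenile germ cells, and in 10.0% of 1N, 7.58% of 2N and 2.17% of 4N cells (17.2%, 18.02% and 10.1% before thinning). In the same thinned cells, 0.19% of migrating, 35.1% of early meiotic and 97.8% of 4N cells had Smc1b without Smc1a. Neither Rec8 nor Rad21 was found in 60.9% of 276 4N cells at this depth, where Rad21 was found in 30.4% and Rec8 in 18.48%, while Smc1b and Stag3 were found in all. Stag1 was found in 72.1% of 4N, 49.2% of 2N and 22.9% of 1N cells, and 73.8% of 1N cells had Stag3 without Stag1. Rad21l was found in at most 9.83% of the germ cells of a stage and in 5.04% of early meiotic ones against 3.86% of somatic cells. In 4N cells it was found in 0 of 276, which allows a share of up to 1.09% of cells with a UMI at this depth (3 cells of 276, counting error only).

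**Figure D5:**
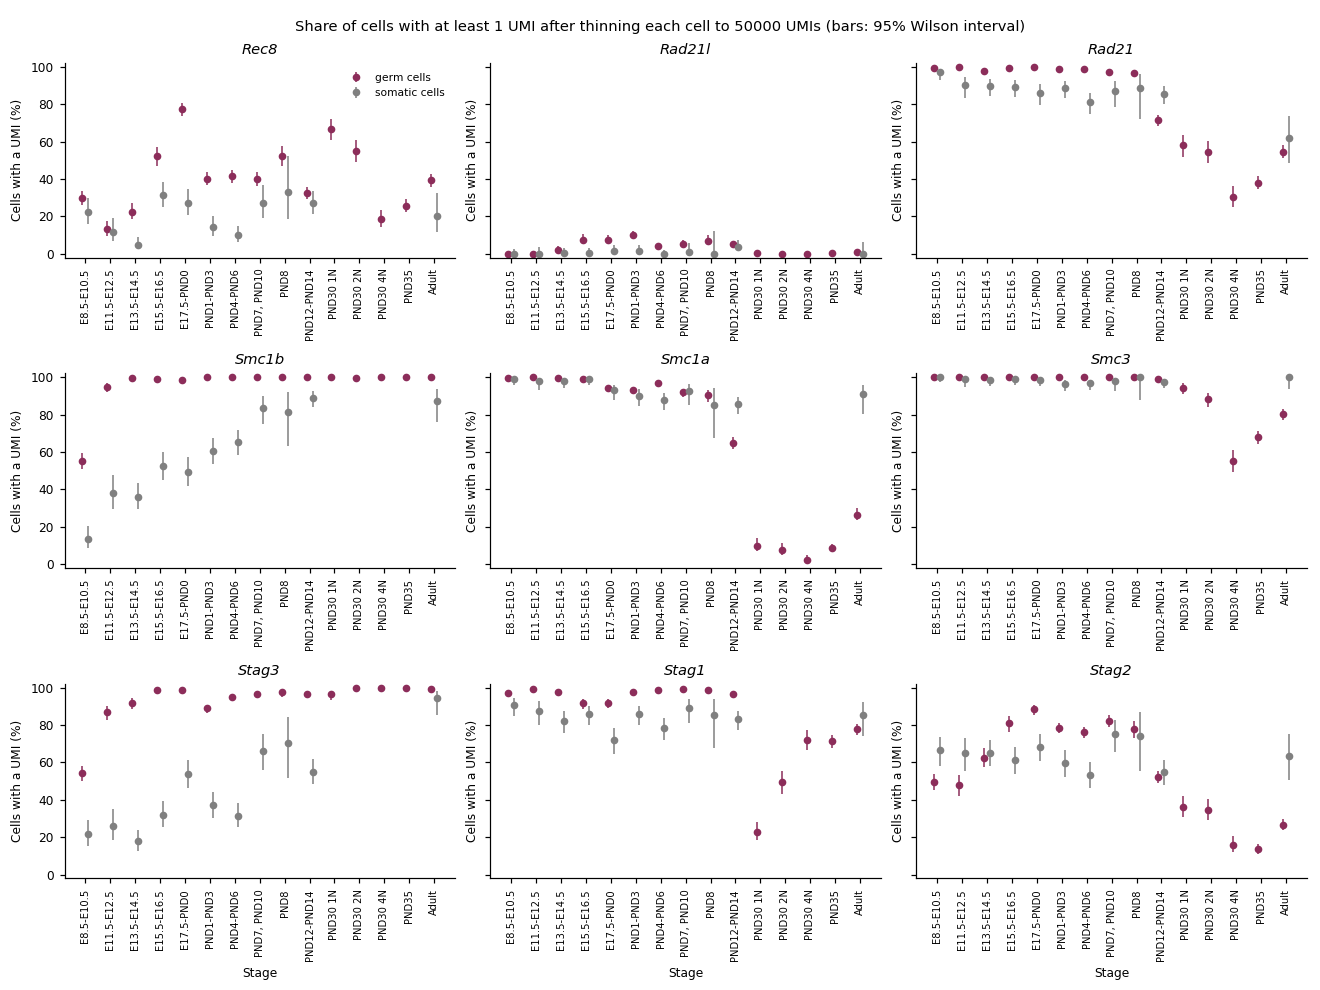
Share of cells (vertical axes, percent) with at least 1 UMI of each subunit after thinning to 50000 UMIs, by stage (horizontal axes), in germ and somatic cells; bars are 95% Wilson intervals. Smc1a drops from 64.95% in early meiotic to 2.17% in 4N germ cells, while Smc1b stays at 98.6% or more from E13.5 on.

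The genes with the patterns most like each subunit were found by Pearson correlation of log2(CPM + 1) over 28 time-points, which share libraries and stages, among 11354 genes. Rad21l was most like Vopp1 (0.96), Hs3st1 (0.95) and Ccnb3 (0.95), Smc1b like Rpl39l (0.96), Tuba3a (0.96) and Ddx4 (0.95), and Stag3 like Jcad (0.95), Pura (0.95) and Brdt (0.94). Rec8 had the loosest likeness, with Jph3 (0.88), Adssl1 (0.86) and Prkcd (0.85). Smc1a was most like Cox7b, Idh3g and Morf4l2 (0.99 each), Rad21 like Pin4 (0.97), Rnf44 (0.96) and Lrrc8d (0.96), and Smc3 like Phb (0.98), Apool (0.97) and Maged1 (0.97). Stag1 was most like Rock2 (0.99), Ikbkap (0.98) and Kin (0.98), and Stag2 like Ctdsp2 (0.94), Ten1 (0.94) and Ssbp3 (0.93). Among the subunits, Smc1a and Smc3 had a Pearson correlation of 0.94 (Spearman 0.80), Rad21 and Smc3 of 0.92 (0.78), Rad21l and Stag2 of 0.80 (0.77) and Smc1b and Stag3 of 0.80 (0.35), and Rad21 and Stag3 ran opposite at -0.61 (-0.62).

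The 9 genes lie on 7 chromosomes (GRCm38, GENCODE M21). Rad21 (chr15:51962240-51991747, minus strand) and Smc1b (chr15:85064689-85131964, minus strand) share chromosome 15, and Smc1a (chrX:152016428-152062694, plus strand) and Stag2 (chrX:42149317-42277185, plus strand) share the X. Rec8 is at chr14:55618037-55625395 (plus strand), Rad21l at chr2:151645404-151668533 (minus strand), Smc3 at chr19:53600398-53645833 (plus strand), Stag3 at chr5:138280240-138312393 (plus strand) and Stag1 at chr9:100597798-100959375 (plus strand).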

How the data were processed

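The authors made single-cell libraries by a modified STRT-seq protocol, trimmed and aligned reads to mm10 and deposited UMI counts, as whole numbers per gene and cell that were not normalized. The submitters' processing notes list CASAVA 1.8, STAR, UMI-tools, Subread and featureCounts. The table held 31053 genes and 13032 cells. Of these, 10224 wild-type cells were used and 2808 columns were not used.

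Cells with more than 2000 genes and 10000 to 1000000 UMIs were kept (9972), and 9400 of them were not sorted as Negative. A germ cell had at least 3 UMIs of Ddx4, Dazl, Mael, Dnd1, Dppa3, Pou5f1 and Nanos3 together, or at least 20 of Tex101, Ldhc, Acrv1, Tnp1 and Prm1, and more germ than somatic UMIs over 35 somatic markers. A somatic cell had at least 10 somatic UMIs and more somatic than germ UMIs (1715 cells). Cells had been picked singly, and no doublet caller was run. Counts were summed by time-point and replicate (at PND30 also DNA content), and pools under 10 germ cells were dropped. Time-point, replicate and DNA content came from the cell names.

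The 56 pools of 15 stages were fitted together in edgeR 4.0.16 (R 4.3.3) with TMM factors, filterByExpr, a trended dispersion and the quasi-likelihood test, over 26674 genes with Benjamini-Hochberg adjustment at 0.05. The standard error is the absolute log2 fold change divided by the square root of F. Fits leaving out 1 pool kept the dispersion trend of the full fit. At PND30 the replicate numbers pair the sorted classes, since the study's methods give a single source per replicate. Deviations of same-numbered pools correlated at 0.28 (1N and 2N), 0.13 (1N and 4N) and 0.42 (2N and 4N). DESeq2 1.42.0, other scalings, filters, germ cell rules and left-out pools were alternatives. The edgeR script was tested on simulated data. Cells were thinned to 50000 UMIs for detection, with 95% Wilson intervals. The limit of a count of 0 is 3 counts. All intervals and floors cover counting error only.

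The subunits, 16 regulators and marker lists were chosen with earlier results of these data known. Named genes were all 9 subunits, up to 4 regulators past the threshold with the largest fold change per comparison, and the 3 genes most like each subunit among genes with a mean of at least 10 CPM. The regulators were Nipbl, Mau2, Wapl, Pds5a, Pds5b, Hdac8, Cdca5, Esco1, Esco2, Sgo1, Sgo2a, Meikin, Espl1, Pttg1, Ctcf and Ctcfl.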

Additional observations from a re-analysis of the deposited data

Results flagged for a closer look

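Of 81 groups of 4 to 6 pools of a stage and subunit, 7 held a pool far from the others. Among like draws from a normal distribution about 1 in 20, or 4.05, would be flagged. That rate is only a rough guide here, since pools of a stage mix time-points. Rad21l, at 0 in all migrating and gonadal pools, could not be flagged there. The E10.5 replicate 3 pool was low in Smc1a (249.8 CPM, the nearest migrating pool at 335 CPM) and in Stag1 (79.5 CPM, nearest 162 CPM). Rad21l stood at 3.58 CPM in E14.5 replicate 1, while the nearest pool of E13.5 and E14.5 was at 0.257 CPM. Stag2 was high in E11.5 replicate 1 (30.01 CPM, nearest 24.1 CPM) and in PND10 replicate 2 (68.97 CPM, nearest 65.5 CPM). Smc3 was low in PND6 replicate 1 (393 CPM, nearest 447 CPM) and Stag3 in PND10 replicate 1 (94.5 CPM, nearest 100.4 CPM).

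A pool of 190 PND30 replicate 2 cells with no DNA content in their names entered no comparison. It had 409.8 CPM of Smc1b and 222.5 CPM of Stag3, beside 4.84 CPM of Smc1a, 76.7 CPM of Smc3 and 34.1 CPM of Rad21.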

How the results depend on the processing

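Of 1741 values of a subunit in a comparison under an alternative, 1644 kept their side of the threshold, 63 lost and 34 gained a call, and 0 called values reversed. Direction was compared only where a value was called. Values not called could change sign, as Rec8 did in early meiotic against juvenile cells (log2 fold change -1.15 to 0.71). The causes were not tested. Rec8 and Rad21l (arresting against gonadal), Stag1 (neonatal against quiescent) and Smc1a, Smc3, Stag1 and Rad21l (4N against early meiotic) were called under every alternative that gave a value.

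Called subunits were 3 in gonadal against migrating cells (1 under the strict germ cell rule, 0 without replicate 1 or 2, 2 to 3 with 1 pool left out) and 6 in arresting against gonadal cells (3 without replicate 1, 5 to 6 with 1 pool left out). In quiescent against arresting cells there were 0 (3 with only the pools of both stages, 1 without replicate 1, 0 to 1 with 1 pool left out). In neonatal against quiescent cells there were 3 (5 with RLE, library size or DESeq2, 6 with only the pools of both stages, 1 without replicate 1, 3 to 4 with 1 pool left out). In early meiotic against juvenile cells there were 2 (1 with RLE, library size, DESeq2, at least 30 cells per pool, Afp and Rbp4 left out of the somatic lists, which was chosen after seeing the data, or 4N cells left out; 0 with the gate alone or without replicate 2; 0 to 2 with 1 pool left out). In 4N against early meiotic cells there were 7 (4 under the strict rule, 6 to 7 with 1 pool left out), in 1N against 4N cells 5 (0 without replicate 2, 3 to 5 with 1 pool left out) and in 2N against 1N cells 0 (1 with RLE, library size, DESeq2 or without replicate 1, 0 to 1 with 1 pool left out). The strict rule gave no value for comparisons with quiescent cells.

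With a replicate block over the PND30 pools, 7 subunits were called in 1N against 4N cells, Stag2 (1.19, adjusted p = 0.0425) and Stag3 (-0.83, adjusted p = 0.0128) among them, and 0 in 2N against 1N cells. The block changed no other call of a subunit.

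Called genes over all genes, with their range over the alternatives, were 1523 (0.543% of those tested, without replicate 2, to 2757), 13149 (6511 to 13824), 2264 (3 to 4216), 14901 (8326 to 15399), 265 (0 to 1873), 2630 (0 to 3699), 13738 (6477 to 14801), 3903 (765 to 8233) and 322 (0 to 1333), in the order of the comparisons above with juvenile against neonatal cells after neonatal against quiescent ones. Of the CPM values 171 moved by less and 72 by more than 1 SD when cells were weighted equally. Of the 9 lists of most alike genes all changed with Spearman correlation.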
